A study of Mus musculus with 12 samples.

Results

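The genes described here are members of the Hedgehog signalling pathway, chosen by gene symbol: the ligand genes Shh and Ihh, the receptor gene Ptch1, the signal transducer gene Smo, the transcription factor genes Gli1, Gli2 and Gli3, and the inhibitor genes Hhip and Sufu. Every probe that carried one of these 9 symbols in the probe annotation was taken, which gave 15 of the 45281 probes on each array and covered 7 of the 9 genes. Shh and Gli1 were named by no probe in that annotation and are not analysed here. All 15 probes passed the filter on dim probes, which left 33960 probes for testing.

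Illumina bead arrays gave transcript levels in the ear of the inbred mouse strains LG/J, known for good closure of ear holes, and SM/J, known for poor closure. The 12 arrays form 4 groups of 3: normal ear of LG/J, LG/J ear from around a punch taken 7 days after the injury, normal ear of SM/J, and SM/J ear from around a punch taken 7 days after the injury. No transgene, allele or drug is named for any group, the labels used here give no age, and they do not say that arrays came from separate animals, so the spread between arrays may be technical in part. In such bulk samples fewer cells of a type and less RNA per cell cannot be told apart.

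In this pathway a secreted Hedgehog ligand binds Patched 1, the product of Ptch1, and thereby releases Smoothened, the product of Smo, from inhibition at the primary cilium. Active Smoothened frees the Gli proteins from Sufu, Gli2 acting mainly as an activator and Gli3 mainly as a repressor, and the genes Gli1, Ptch1 and Hhip are direct targets widely used as a readout. In skin, Shh comes from the hair follicle, Ihh is a ligand of cartilage and bone, and Dhh is made by Schwann cells of peripheral nerve.

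Levels are given as log2 of the background-corrected and quantile-normalized intensity, in which a difference of 1 is a doubling, and the array-specific limit of background lay between 5.75 and 5.83. A probe was called changed at a Benjamini-Hochberg adjusted p under 0.05 over all 33960 probes (limma, all 12 arrays in 1 fit). Median deposited intensity ran from 95.9 to 118 over the arrays and 52.4% to 55.0% of probes lay above the limit. The epidermal, fibroblast and cartilage genes of the ear were measured well: all 10 epidermis markers and all 16 fibroblast markers exceeded the limit on every array, and 17 to 19 of 20 cartilage markers did. The array LG/J uninjured replicate 4 stood apart, with a first principal component score of 6.28 against -66.0 and -61.9 for the other LG/J uninjured arrays and 36.2 to 69.1 for SM/J uninjured. Member results that rest on it, and list counts that it moved by more than 1.5 times, are given with and without it.

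After the punch, Gli2 was lower in both strains and Ptch1 was lower in SM/J by its brighter probe. No probe of the 7 genes was called higher. In SM/J the called falls were Gli2 by 0.88 ± 0.13 and 0.82 ± 0.18 on its separate probes and Ptch1 by 1.09 ± 0.24 (log2 change ± SE of the fit, n = 3 arrays per group). In LG/J Gli2 by its brighter probe alone passed, with a fall of 0.50 ± 0.13. Thus 3 of 15 probes were called in SM/J and 1 of 15 in LG/J, all lower, where 9.39% of all probes were called in SM/J (5.17% higher and 4.21% lower) and 9.04% in LG/J (4.81% higher and 4.23% lower). Groups did not overlap for 5 of the 15 probes in SM/J, where 31.6% of all probes did not. The 5 included Gli3 probe 1, which lay higher at day 7. In LG/J groups did not overlap for 2 of the 15, where 28.2% of all did not. The median change over the 15 probes was -0.19 in SM/J and -0.03 in LG/J, against -0.02 and -0.01 over all probes.

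**Figure D1:**
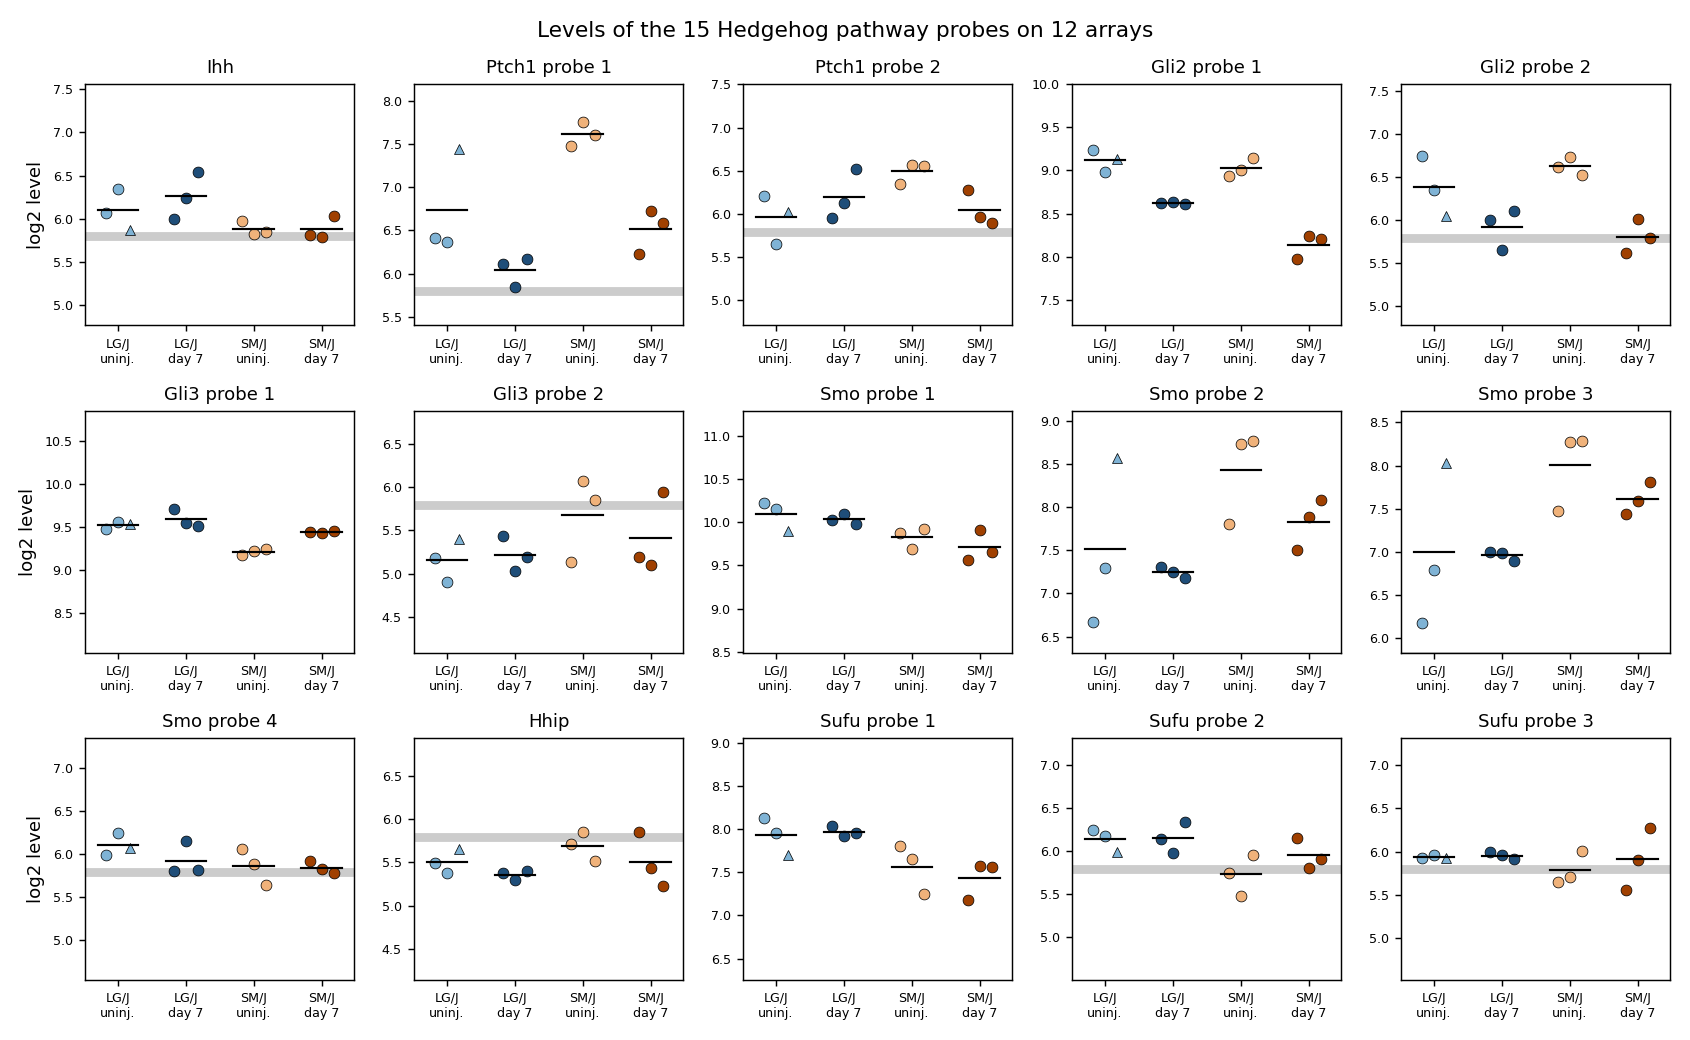
Log2 level (vertical axis, each panel spanning the same range) of the 15 probes on the 12 arrays, by group. Points are arrays, the short bars are group means, the triangle is LG/J uninjured replicate 4 and the grey band is the range of the background limit (5.75 to 5.83). Gli2 probe 1 lies lower at day 7 than in uninjured ear in both strains, and the triangle stands with SM/J for Ptch1 probe 1 and Smo probes 2 and 3.

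Gli2, the main activator of transcription in the pathway, is on chromosome 1 (118834061 to 119054405, GRCm38.p6) and was read by 2 probes. Gli2 probe 1 (ILMN_2522863) had levels of 9.24, 8.98 and 9.13 in LG/J uninjured ear and 8.62, 8.63 and 8.61 in LG/J at day 7. In SM/J it had 8.93, 9.0 and 9.14 in uninjured ear and 7.97, 8.24 and 8.21 at day 7. The 3 day-7 arrays lay below all uninjured ones of the same strain in both strains, and the day-7 arrays of LG/J were close together (SD 0.01). The deposited intensities ran from 551 to 637 in uninjured and from 253 to 335 at day 7 in SM/J, so this probe lay far above background throughout.

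The fall of Gli2 probe 1 in SM/J left 54.4% of the uninjured level (adjusted p = 0.000666), and that in LG/J left 70.7% (adjusted p = 0.0249). The SM/J call was kept under all 23 alternatives to the processing, with changes from -1.06 to -0.78. The LG/J call was lost on leaving out LG/J uninjured replicate 1 (-0.43, adjusted p = 0.0815), LG/J day 7 replicate 1 (-0.50, adjusted p = 0.0839), LG/J day 7 replicate 2 (-0.50, adjusted p = 0.0657) or LG/J day 7 replicate 3 (-0.49, adjusted p = 0.0793). It was kept without LG/J uninjured replicate 4 (-0.50, adjusted p = 0.0359). The change in LG/J was smaller than that in SM/J by 0.38 ± 0.18, and this difference did not pass (adjusted p = 0.571, 95% interval -0.01 to 0.76).

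Gli2 probe 2 (ILMN_2668750) was dimmer and above the limit on 9 of 12 arrays. Its levels in SM/J were 6.62, 6.73 and 6.52 in uninjured ear and 5.62, 6.01 and 5.79 at day 7, without overlap, of which 1 day-7 array exceeded background. In LG/J they were 6.74, 6.35 and 6.05 in uninjured ear and 6.0, 5.65 and 6.10 at day 7, and here the groups overlapped. The fall in SM/J was called (adjusted p = 0.0126), and this call did not survive the removal of day-7 SM/J replicate 1 (-0.73, adjusted p = 0.0676) or of uninjured SM/J replicate 4 (-0.75, adjusted p = 0.0597). The change in LG/J was -0.46 ± 0.18 (adjusted p = 0.139), and without LG/J uninjured replicate 4 it was called at -0.62 (adjusted p = 0.039). Over the 12 arrays the levels of the Gli2 probes correlated at 0.79 (Pearson, a description over arrays that fall into groups).

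Gli2 and Ptch1 were the members with called changes, so the bases before a start site of each are shown, from RefSeq on GRCm38.p6. Both windows lie inside the gene spans, which reach 119054405 for Gli2 and 63573460 for Ptch1. They thus precede internal start sites, and the bases before the outermost start of each gene are not shown. Promoter windows were found for the 7 measured genes. Capitals mark the letters of the core of the Gli binding motif, and the sequences read 5′ to 3′ on the strand of the gene.
Gli2, chr1:119053620-119053869, minus strand: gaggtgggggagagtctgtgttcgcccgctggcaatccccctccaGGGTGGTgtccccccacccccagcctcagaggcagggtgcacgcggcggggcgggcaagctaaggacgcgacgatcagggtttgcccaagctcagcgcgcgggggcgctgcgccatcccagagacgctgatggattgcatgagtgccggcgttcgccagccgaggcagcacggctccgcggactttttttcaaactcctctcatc
Ptch1, chr13:63565736-63565985, minus strand: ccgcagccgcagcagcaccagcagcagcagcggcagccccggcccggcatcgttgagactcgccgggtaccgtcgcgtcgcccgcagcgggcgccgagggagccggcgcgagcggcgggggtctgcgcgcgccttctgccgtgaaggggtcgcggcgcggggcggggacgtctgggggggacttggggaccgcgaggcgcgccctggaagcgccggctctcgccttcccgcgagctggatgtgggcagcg
The Gli motif GACCACCCA, searched on both strands, was in none of the 7 windows of 250 bases and in 0.225% of all 32851 windows of that length. Its inner letters ACCACCC, which any match to the longer motif also holds, were in 1 of the 7, that of Gli2, as the reverse complement GGGTGGT ending 198 bases before the start site, and in 3.92% of all windows. The Ptch1 window held 41 CG dinucleotides, more than 98.9% of all windows, and the Gli2 window held 22. A match is only a match of letters in this window.

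Ptch1, which encodes the ligand receptor and is itself a target of the pathway, is on chromosome 13 (63508328 to 63573460, GRCm38.p6). Ptch1 probe 1 (ILMN_2460224) had levels of 7.48, 7.76 and 7.60 in SM/J uninjured ear and 6.23, 6.73 and 6.59 in SM/J at day 7. In LG/J it had 6.41, 6.37 and 7.44 in uninjured ear and 6.11, 5.84 and 6.17 at day 7. All day-7 arrays lay below the uninjured arrays of their strain, and the uninjured LG/J array at 7.44 was replicate 4, more than a doubling above the other uninjured LG/J arrays. In SM/J the level at day 7 was 46.8% of that in uninjured ear (adjusted p = 0.0123). Removing day-7 SM/J replicate 1 (-0.96, adjusted p = 0.068) or uninjured SM/J replicate 4 (-1.01, adjusted p = 0.0571) ended this call, as did the replicate block (-0.69, adjusted p = 0.143), although the replicate numbers do not pair the arrays.

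In LG/J the change of Ptch1 probe 1 was -0.70 ± 0.24 and did not pass (adjusted p = 0.0948). Without LG/J uninjured replicate 4 it was -0.35 (adjusted p = 0.22). Ptch1 probe 2 (ILMN_1248463), annotated to the same transcript, was not called in either strain. Its change had the same sign as that of probe 1 in SM/J and the opposite sign in LG/J. Its levels were 6.35, 6.57 and 6.56 in SM/J uninjured ear and 6.28, 5.96 and 5.90 at day 7, a change of -0.45 ± 0.18 (adjusted p = 0.154) without overlap. In LG/J they were 6.21, 5.65 and 6.02 in uninjured ear and 5.95, 6.13 and 6.52 at day 7, a change of 0.24 ± 0.18 (adjusted p = 0.482) with overlap. Probe 2 lay within 1 log2 unit of background on all arrays. So did probe 1 on all day-7 arrays and on LG/J uninjured replicates 1 and 3. The correlation between the probes over the arrays was 0.43, or 0.07 after subtracting group means. Which of the probes better reports the transcript was not tested.

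**Figure D2:**
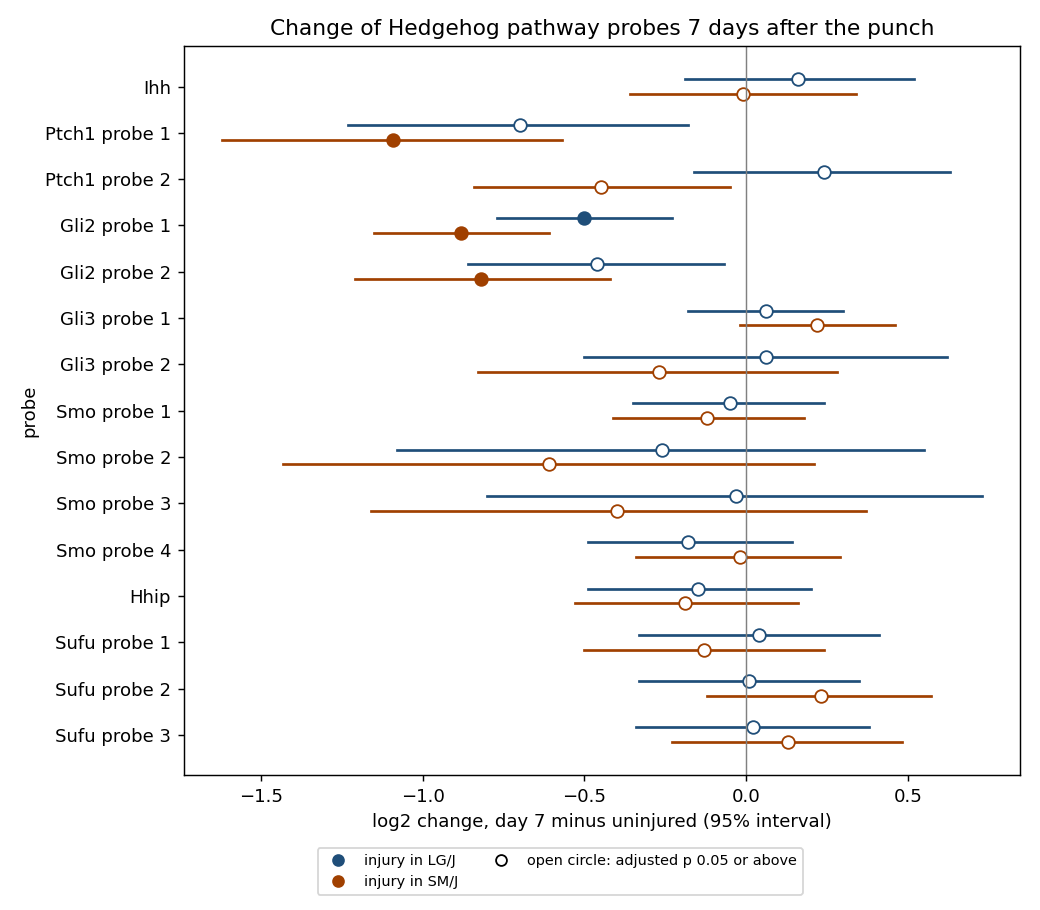
Log2 change from uninjured ear to day 7 (horizontal axis) of the 15 probes in LG/J (blue) and SM/J (brown), with 95% intervals of the fit. Filled circles had an adjusted p under 0.05: Gli2 probe 1 in both strains, and Gli2 probe 2 and Ptch1 probe 1 in SM/J.

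Gli3, whose product is mainly a repressor, is on chromosome 13 (15463723 to 15730026, GRCm38.p6) and had no called change. Gli3 probe 1 (ILMN_2449396) had levels of 9.48, 9.56 and 9.53 in LG/J uninjured ear and 9.71, 9.55 and 9.51 at day 7. In SM/J it had 9.18, 9.22 and 9.24 in uninjured ear and 9.44, 9.43 and 9.45 at day 7. The SM/J groups did not overlap, but the change of 0.22 ± 0.11 did not pass (adjusted p = 0.247), and under median scaling it was -0.04. In LG/J the change was 0.06 ± 0.11, with a 95% interval of -0.18 to 0.30, and under median scaling it was -0.12. Gli3 probe 2 (ILMN_1215183) exceeded background on 3 of 12 arrays and none of its comparisons passed.

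Ihh, a ligand best known from cartilage and bone, is on chromosome 1 (74945315 to 74951672, GRCm38.p6), and its 1 probe (ILMN_2699737) lay just above the limit on all 12 arrays. Its levels were 6.07, 6.35 and 5.87 in LG/J uninjured ear, 6.0, 6.24 and 6.54 in LG/J at day 7, 5.98, 5.82 and 5.85 in SM/J uninjured ear and 5.81, 5.79 and 6.03 in SM/J at day 7. The groups overlapped in each injury comparison, and the changes were 0.16 ± 0.16 in LG/J (95% interval -0.19 to 0.52) and -0.01 ± 0.16 in SM/J (-0.36 to 0.34). Hhip, a membrane protein that sequesters ligand and is a target of the pathway, is on chromosome 8 (79965850 to 80058060, GRCm38.p6). Its 1 probe (ILMN_2684250) exceeded the limit on 2 of 12 arrays, both of SM/J, so a fall in Hhip was not detectable at this signal. No rise was called, with changes of -0.15 ± 0.16 in LG/J (95% interval -0.49 to 0.20) and -0.19 ± 0.16 in SM/J (-0.53 to 0.16).

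Sufu, the cytoplasmic inhibitor of Gli proteins, is on chromosome 19 (46396896 to 46488804, GRCm38.p6) and had 3 probes, none of which passed for injury. The changes ran from 0.01 to 0.04 in LG/J and from -0.13 to 0.23 in SM/J, with adjusted p from 0.439 to 0.978. For Sufu probe 1 (ILMN_2441176), the brightest, the 95% interval was -0.33 to 0.41 in LG/J and -0.50 to 0.24 in SM/J. Probes 1 and 2 (ILMN_2636718) are annotated to separate RefSeq transcripts and probe 3 (ILMN_1230597) to a cDNA clone.

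Smo, which encodes the transducer Smoothened, is on chromosome 6 (29735497 to 29761366, GRCm38.p6) and had 4 probes that fell into distinct patterns. Smo probe 1 (ILMN_2986978), the brightest of the 15 probes, was nearly level, with group means of 10.09 ± 0.17 and 10.04 ± 0.06 in LG/J and 9.83 ± 0.12 and 9.71 ± 0.18 in SM/J (SD, n = 3, uninjured first). Its changes with injury were -0.05 ± 0.14 and -0.12 ± 0.14, with 95% intervals of -0.35 to 0.24 and -0.41 to 0.18. Smo probe 4 (ILMN_1236330), annotated to a cDNA clone, lay near background, with changes of -0.18 ± 0.15 and -0.02 ± 0.15.

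Smo probes 2 and 3 varied far more, and together. Smo probe 2 (ILMN_2741614) had levels of 6.67, 7.29 and 8.57 in LG/J uninjured ear and 7.31, 7.25 and 7.18 in LG/J at day 7. In SM/J it had 7.81, 8.73 and 8.76 in uninjured ear and 7.50, 7.89 and 8.08 at day 7. The high value of 8.57 was again LG/J uninjured replicate 4, and the low value of 7.81 was SM/J uninjured replicate 2. Smo probe 3 (ILMN_2741611) followed the same order, with 6.18, 6.79 and 8.03 in LG/J uninjured ear and 7.47, 8.27 and 8.29 in SM/J uninjured ear. The correlation between probes 2 and 3 over the 12 arrays was 0.98, and 0.99 after subtracting group means.

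Smo probe 1 ran the other way, with correlations of -0.57 to probe 2 and -0.70 to probe 3 over the arrays, although probes 1, 2 and 3 are annotated to the same transcript. LG/J uninjured replicate 4 lay above the mean of the other LG/J uninjured arrays by 1.59 on Smo probe 2, 1.54 on Smo probe 3 and 1.04 on Ptch1 probe 1, but by 0.02 on Gli2 probe 1 and 0.01 on Gli3 probe 1, and it lay below them on Smo probe 1 (-0.28). Ptch1 probe 1 correlated with Smo probe 2 at 0.84 over the arrays, which share the LG/J uninjured replicate 4 departure. On this array the 9 macrophage markers were all lower than on the other LG/J uninjured arrays (median -1.29), as were 14 of 16 fibroblast markers (median -0.71) and 16 of 23 hair follicle and sebaceous gland markers (median -0.51). The part of these in the Ptch1 and Smo values was not tested.

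**Figure D3:**
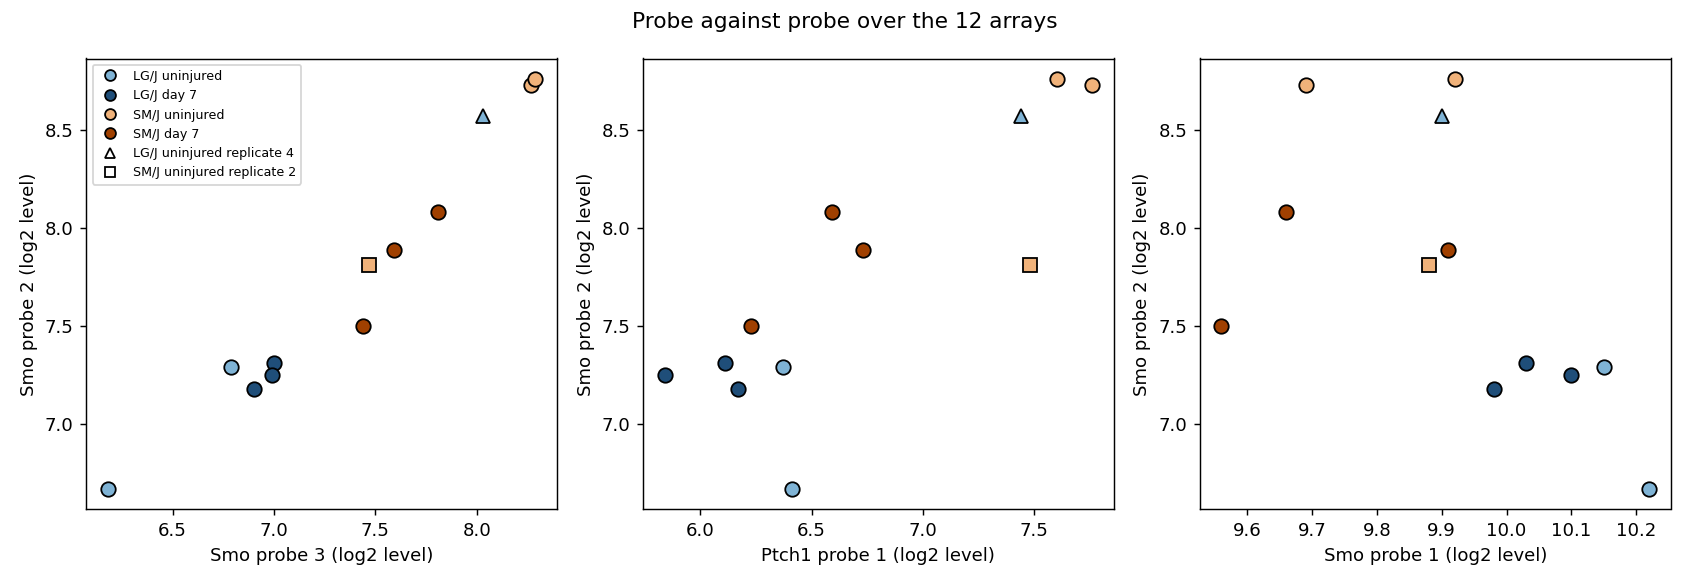
Log2 level of Smo probe 2 (vertical axes) against Smo probe 3, Ptch1 probe 1 and Smo probe 1 (horizontal axes) on the 12 arrays, coloured by group. The triangle, LG/J uninjured replicate 4, lies among the SM/J uninjured arrays in the left and middle panels, and the square is SM/J uninjured replicate 2. Probes 2 and 3 follow a line (0.98), and probe 1 does not rise with them (-0.57).

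Whether the strains differed in their response was tested as the difference of the changes. None of the 15 probes passed (limma), and 1 of 15, Ptch1 probe 2, had an unadjusted p under 0.05 (difference 0.68 ± 0.26, adjusted p = 0.381). Of all probes 0.345% were called, 0.0294% higher and 0.315% lower. The median difference over the 15 probes was 0.17, against 0.02 over all probes. With uninjured replicate 4 of LG/J and replicate 2 of SM/J both left out, Smo probes 2 and 3 were called with differences of 1.19 (adjusted p = 0.0218) and 1.14 (adjusted p = 0.0147), so the Smo result turned on these 2 arrays.

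In uninjured ear, Ptch1 was the 1 member called between strains, lower in LG/J than in SM/J. Ptch1 probe 1 differed by -0.87 ± 0.24 (LG/J minus SM/J, adjusted p = 0.0225), with all LG/J levels (6.37 to 7.44) below all SM/J levels (7.48 to 7.76). Without LG/J uninjured replicate 4 the difference was -1.21 (adjusted p = 0.000101). The call was lost without LG/J uninjured replicate 1 (-0.70, adjusted p = 0.101), LG/J uninjured replicate 3 (-0.68, adjusted p = 0.107), SM/J uninjured replicate 5 (-0.87, adjusted p = 0.0677) or uninjured SM/J replicate 4 (-0.79, adjusted p = 0.0898). Ptch1 probe 2 differed in the same direction by -0.53 ± 0.18, without overlap, and just missed the threshold (adjusted p = 0.054). The single called probe is 6.67% of the 15, below the 21.6% of all probes called between strains in uninjured ear (10.6% lower in LG/J), and groups did not overlap for 4 of the 15 against 29.4% of all.

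Smo probes 2 and 3 were lower in LG/J uninjured ear by -0.92 ± 0.38 (adjusted p = 0.0991) and -1.01 ± 0.35 (adjusted p = 0.0572), and their groups overlapped. Without LG/J uninjured replicate 4 the differences were -1.46 (adjusted p = 0.00105) and -1.53 (adjusted p = 0.0003), and 6 of the 15 probes were called in place of 1, where 35.5% of all probes were called in place of 21.6%. The 6 were Ptch1 probes 1 and 2 and Smo probes 2 and 3, lower in LG/J, and Sufu probes 1 and 2, higher in LG/J (both 0.48). Smo probe 1 had the opposite sign throughout (0.26 ± 0.14 with all arrays, adjusted p = 0.196). Gli2 probe 1 gave no called difference between the uninjured strains (0.10 ± 0.13, 95% interval -0.18 to 0.37).

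At day 7, Gli2 and Sufu were higher in LG/J than in SM/J, each by 1 probe. Gli2 probe 1 was higher by 0.48 ± 0.13 (adjusted p = 0.0165), with LG/J arrays at 8.61 to 8.63 and SM/J arrays at 7.97 to 8.24. Its group means fell in the order LG/J uninjured (9.12 ± 0.13), SM/J uninjured (9.02 ± 0.11), LG/J day 7 (8.62 ± 0.01) and SM/J day 7 (8.14 ± 0.15), in which the first pair of neighbours overlapped and the others did not. The call at day 7 was lost without day-7 SM/J replicate 1 (0.39, adjusted p = 0.071) or day-7 LG/J replicate 2 (0.47, adjusted p = 0.051). Gli2 probe 2 differed by 0.11 ± 0.18 (adjusted p = 0.692), near background in both groups.

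Sufu probe 1 was higher in LG/J at day 7 by 0.54 ± 0.17 (adjusted p = 0.0357), with levels of 8.03, 7.92 and 7.96 in LG/J and 7.18, 7.57 and 7.56 in SM/J. The groups did not overlap, but leaving out any 1 of these 6 arrays took the call away (0.41 to 0.61, adjusted p from 0.0521 to 0.141), as did median scaling (0.49, adjusted p = 0.102). Sufu probes 2 and 3 differed by 0.20 and 0.04 (adjusted p = 0.384 and 0.877). The called probes, 2 of 15 (13.3%), compare with 25.2% of all probes at day 7 (13.1% higher in LG/J), and the 7 of 15 without overlap with 48.7% of all (26.3% higher and 22.4% lower in LG/J). Ptch1 probe 1 lay lower in LG/J at day 7 on every array, by -0.48 ± 0.24, and did not pass (adjusted p = 0.167), but passed without LG/J uninjured replicate 4 (-0.47, adjusted p = 0.0239), which enters this comparison through the shared spread and the normalization.

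**Figure D4:**
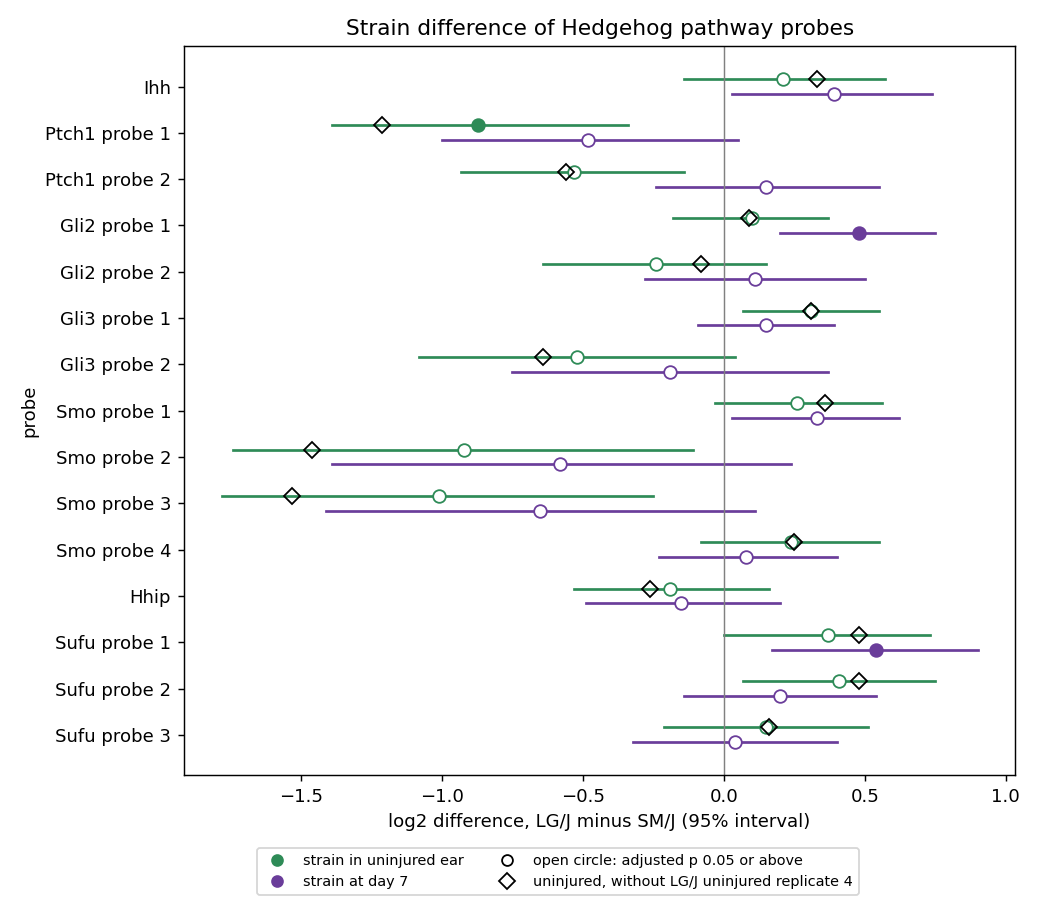
Log2 difference LG/J minus SM/J (horizontal axis) of the 15 probes in uninjured ear (green) and at day 7 (purple), with 95% intervals of the fit and filled circles for an adjusted p under 0.05. Diamonds are the uninjured differences without LG/J uninjured replicate 4, which lie further from 0 for Ptch1 probe 1 (-1.21) and Smo probes 2 and 3 (-1.46 and -1.53).

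Other genes of the pathway were followed on 5 lists, each gene by its brightest probe. Their injury counts are read against the 9.04% of all probes called in LG/J and the 9.39% in SM/J. Without LG/J uninjured replicate 4 these shares were 9.66% and 17.6%. The shares cover all tested probes, dim and unnamed ones included, so they are not from a like set. Among 27201 probes above background on at least 3 arrays, 3283 were called in LG/J and 3432 in SM/J. Of 7 genes of further ligands and ligand release, 6 were measured. In SM/J 2 of these fell with injury and none rose: Disp1, which releases lipid-modified ligand from cells, by 0.72 ± 0.16 (adjusted p = 0.013) and the ligand gene Dhh by 0.58 ± 0.12 (adjusted p = 0.00952). None passed in LG/J, where Hhat, the acyltransferase that palmitoylates ligand, came nearest (0.57 ± 0.18, adjusted p = 0.0608) while Disp1 was at -0.44 ± 0.16 (adjusted p = 0.114) and Dhh at -0.24 ± 0.12 (adjusted p = 0.258). The list median was -0.49 in SM/J and -0.30 in LG/J. Without LG/J uninjured replicate 4 the counts lower were 3 in SM/J and 1 in LG/J.

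Of 11 coreceptors and membrane modulators, 5 were measured. Gpc3, a glypican that competes with Patched 1 for ligand, fell in LG/J by 0.58 ± 0.13 (adjusted p = 0.0137) and in SM/J by 0.49 ± 0.13 (adjusted p = 0.0332). In SM/J the ligand coreceptor gene Cdon fell by 0.77 ± 0.21 (adjusted p = 0.0374) and the ciliary gene Evc2, which acts downstream of Smoothened, by 0.77 ± 0.17 (adjusted p = 0.0108), with values in LG/J of -0.60 (adjusted p = 0.102) and -0.22 (adjusted p = 0.479). Arrb2, a beta-arrestin with many roles outside this pathway, rose in LG/J by 0.85 ± 0.20 (adjusted p = 0.0153) and was at 0.56 ± 0.20 (adjusted p = 0.0927) in SM/J. The list medians were -0.38 in LG/J and -0.49 in SM/J. Without LG/J uninjured replicate 4 the list had 1 rise and 2 falls in LG/J and 1 rise and 4 falls in SM/J.

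Intracellular transduction genes and cilium genes had few calls. Of 15 measured transduction genes (17 listed), Csnk1d, a casein kinase that phosphorylates Gli proteins, rose in LG/J (0.52 ± 0.15, adjusted p = 0.0461) and SM/J (0.56 ± 0.15, adjusted p = 0.0326), and none fell. Without LG/J uninjured replicate 4 the list had 0 calls in LG/J and 1 rise and 2 falls in SM/J. Of 36 measured cilium genes (39 listed), 3 fell in LG/J and 2 in SM/J and none rose. The ciliary transport gene Ift80 (-0.55 ± 0.13 and -0.78 ± 0.13) and the transition zone gene Cc2d2a (-0.68 ± 0.13 and -0.48 ± 0.13) fell in LG/J and SM/J, and the BBSome gene Bbs2 fell by 0.70 ± 0.13 in LG/J and was at -0.44 ± 0.13 (adjusted p = 0.0576) in SM/J. These counts, 8.33% and 5.56% of the list, lie near the 9.04% and 9.39% of all probes. Without LG/J uninjured replicate 4 they were 3 in LG/J and 8 in SM/J, where 17.6% of all probes were then called in SM/J.

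Of 33 genes reported elsewhere as Hedgehog targets, 22 were measured, most of which also answer to other signals. In LG/J 2 rose and 4 fell, and in SM/J 2 rose and 7 fell, with list medians of -0.10 and -0.42. These are 27.3% and 40.9% of the list, against 9.04% and 9.39% of all probes. Sox9, a transcription factor of hair follicle stem cells and cartilage, fell by 0.91 ± 0.19 in LG/J (adjusted p = 0.00855) and 1.07 ± 0.19 in SM/J (adjusted p = 0.00262). Ccnd2, a G1 cyclin (-0.72 ± 0.15 and -0.79 ± 0.15), and the survival gene Bcl2 (-0.68 ± 0.12 and -0.75 ± 0.12) fell in both strains. Foxm1, a transcription factor of dividing cells, rose in both strains, by 0.85 ± 0.16 in LG/J (adjusted p = 0.00478) and 0.64 ± 0.16 in SM/J (adjusted p = 0.0218). Without LG/J uninjured replicate 4 there were 2 rises and 5 falls in LG/J and 3 rises and 9 falls in SM/J. Of all probes, 9.66% and 17.6% were then called.

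**Figure D5:**
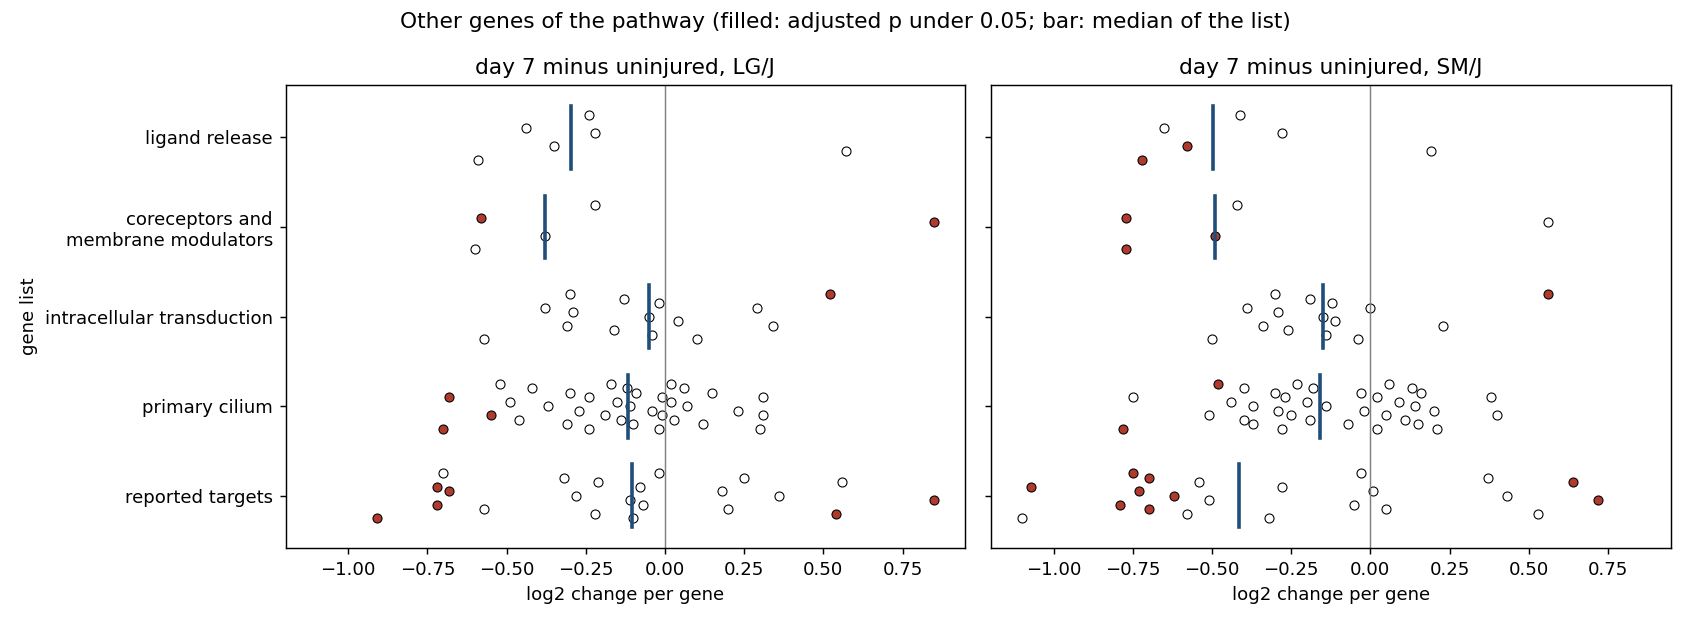
Log2 change with injury (horizontal axes) of every measured gene on the 5 pathway lists in LG/J (left) and SM/J (right). Filled points had an adjusted p under 0.05 and blue bars are list medians, which were -0.30 in LG/J and -0.49 in SM/J for ligand release.

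Between the strains, calls were common over the whole array, with 21.6% of all probes called in uninjured ear and 25.2% at day 7, against which the list counts are read. Dhh was higher by 0.37 ± 0.12 in uninjured ear (adjusted p = 0.0463) and by 0.70 ± 0.12 at day 7 (adjusted p = 0.00157), and Disp1 by 0.61 ± 0.16 (adjusted p = 0.0172) and 0.89 ± 0.16 (adjusted p = 0.00204). These comparisons share their LG/J and SM/J arrays with the injury comparisons. Of the 6 measured ligand release genes, 2 were called in uninjured ear and 4 at day 7, all higher in LG/J (33.3% and 66.7% of a list of 6), among them Hhat at day 7 (0.56 ± 0.18, adjusted p = 0.0355), and these counts were alike without LG/J uninjured replicate 4. Evc, the partner of Evc2, was higher in LG/J by 0.66 ± 0.19 and 0.70 ± 0.19, and Evc2 at day 7 by 0.82 ± 0.17 (adjusted p = 0.00449). Of the 5 coreceptor genes 1 was higher in LG/J in uninjured ear and 2 at day 7, and none was lower. These became, on leaving out LG/J uninjured replicate 4, 4 higher and 1 lower in uninjured ear and 3 higher and 1 lower at day 7, where 35.5% and 34.9% of all probes were called.

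Of the 15 transduction genes, 1 was higher and 1 lower in LG/J uninjured ear: Btrc, of the ubiquitin ligase that acts on Gli proteins, at 0.65 ± 0.21, and Rab23, a negative regulator, at -0.96 ± 0.30. At day 7, 3 were higher, among them the ciliary trafficking gene Tulp3 at 0.81 ± 0.21 and the kinase gene Stk36 at 0.76 ± 0.16, and 2 were lower, with the kinase gene Gsk3b at -0.72 ± 0.18. These are 13.3% and 33.3% of the list, and without LG/J uninjured replicate 4 the counts were 1 higher and 4 lower in uninjured ear and 4 and 4 at day 7. Of the 36 cilium genes 6 were higher and 1 lower in uninjured ear, and 7 higher and 1 lower at day 7, which is 19.4% and 22.2% of the list, below the shares of all probes. They were 10 and 1 in uninjured ear and 9 and 2 at day 7 without LG/J uninjured replicate 4. With all arrays the 1 lower gene was Ift74 at both times (-1.62 ± 0.39 and -1.35 ± 0.39), and its probe exceeded background on only 7 of 12 arrays. Ift172 was higher at both (0.72 ± 0.14 and 0.70 ± 0.14), with Ift140 at 0.72 ± 0.13 in uninjured ear and Mks1 at 0.67 ± 0.20 at day 7. Of the reported targets 2 were higher and 1 lower in uninjured ear and 3 and 1 at day 7, which is 13.6% and 18.2% of the list, also below the shares of all probes. Bmp4, a growth factor gene, was higher in LG/J by 0.83 ± 0.20 and 0.96 ± 0.20, and Rab34 was lower (-1.18 ± 0.21 and -1.14 ± 0.21). Tbx2, above background on 9 of 12 arrays, was higher by 0.49 ± 0.16 and 0.99 ± 0.16. No gene of the 5 lists was called for a difference of injury between strains (limma), and the nearest on their lists were Dhh (0.33 ± 0.17, adjusted p = 0.635), Evc2 (0.55 ± 0.24, adjusted p = 0.49), Tulp3 (0.80 ± 0.29, adjusted p = 0.348), Ttc21b (0.53 ± 0.23, adjusted p = 0.523, above background on 4 of 12 arrays) and Tbx2 (0.51 ± 0.22, adjusted p = 0.514).

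Schwann cell, cartilage, hair follicle and dermal papilla markers stand for tissues that hold Hedgehog-producing or Hedgehog-responding cells. On each of these lists more markers were called lower than higher after the punch, in both strains. For dermal papilla markers in LG/J this was 3 against 2 of 10. Marker counts here and below are read against the shares of all probes. In LG/J 9.04% of all probes were called, 4.81% higher and 4.23% lower. In SM/J 9.39% were called, 5.17% higher and 4.21% lower. Gli2 was called lower in both strains, but Ptch1 and Dhh in SM/J alone. The changes of Ptch1 and Dhh were not called different between the strains, however. These differences were 0.39 ± 0.34 for Ptch1 probe 1 (adjusted p = 0.855, limma) and 0.33 ± 0.17 for Dhh (adjusted p = 0.635). Falls were not limited to these tissues: 7 of 10 skeletal muscle markers fell in LG/J and 1 in SM/J. Of 8 adipocyte markers 3 fell in LG/J and 7 in SM/J. Of 17 measured Schwann cell and nerve markers, 9 fell in LG/J and 10 in SM/J and none rose, with medians of -0.70 and -0.86, and Mbp, which encodes myelin basic protein, fell in both (-1.60 ± 0.15 and -2.12 ± 0.15). Their summed background-corrected intensity ran from 21324 to 23405 in LG/J uninjured ear and 11205 to 11770 at day 7, and from 22603 to 25790 and 11650 to 12650 in SM/J, with at least 15 of 17 markers above background on every array. Of 20 cartilage markers 7 fell and 2 rose in LG/J and 10 fell and 2 rose in SM/J, with medians of -0.59 and -0.86 and summed intensities of 72471 to 82929 and 36005 to 49048 in LG/J and 65881 to 77193 and 35307 to 35735 in SM/J. In LG/J the cartilage median was -0.20 without uninjured replicate 4. Of these, Ucma fell (-1.41 ± 0.24 in LG/J and -1.26 ± 0.24 in SM/J) and Col9a3 rose (1.56 ± 0.17 and 1.55 ± 0.17) in both strains. Chad fell by 1.60 ± 0.22 in SM/J, and in LG/J it was at -0.76 ± 0.22 (adjusted p = 0.0507).

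Hair follicle and sebaceous gland markers had 1 rise and 3 falls of 23 in LG/J and 0 rises and 4 falls in SM/J, both with a median of -0.30. These are 17.4% of the list in each strain, against 9.04% and 9.39% of all probes. Each strain had 1 rise and 6 falls without LG/J uninjured replicate 4, when 9.66% of all probes were called in LG/J and 17.6% in SM/J. With all arrays the rise in LG/J was Lgr5 (1 ± 0.24, adjusted p = 0.0194, limma), which was at 0.8 ± 0.24 in SM/J (adjusted p = 0.053). Krt15, a keratin of follicle stem cells and basal cells, fell in both strains (-1.45 ± 0.13 and -0.96 ± 0.13). Their summed intensity lay between 60809 and 71767 in LG/J uninjured ear and between 34140 and 37809 at day 7, and between 50028 and 62675 and then 28081 and 33846 in SM/J, with 14 to 22 markers above background. A sum weighs the brightest markers most. Their mean log2 level overlapped in LG/J (7.62 to 8.32 uninjured, 7.49 to 7.76 at day 7) and not in SM/J (7.54 to 7.58 and 7.24 to 7.28). Of 10 dermal papilla markers, the mesenchyme that responds to Shh, 2 rose and 3 fell in LG/J and 2 rose and 5 fell in SM/J, with medians of -0.32 and -0.48. Corin, a protease of that tissue, fell in both strains (-1.53 ± 0.16 and -1.88 ± 0.16), and Crabp1 rose by 2.46 ± 0.26 and 1.41 ± 0.26. Their summed intensity ran from 13807 to 20789 in uninjured and 7902 to 9404 in day-7 ear of LG/J, and from 19378 to 23311 and 9977 to 10618 in SM/J, with 7 to 10 of 10 above background. The mean log2 level of these 10 overlapped in LG/J (8.33 to 8.38 and 8.25 to 8.35) and not in SM/J (8.28 to 8.33 and 7.99 to 8.08).

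Fibroblast markers had 0 calls of 16 in LG/J and 1 rise and 2 falls in SM/J, with medians of 0.16 and 0.02 and summed intensities that overlapped between uninjured and day-7 arrays in both strains. They had 1 rise and 1 fall in LG/J and 3 rises and 4 falls in SM/J without LG/J uninjured replicate 4. Of all probes, 9.66% were then called in LG/J and 17.6% in SM/J. Of 9 macrophage markers 8 rose in LG/J and 4 in SM/J (medians 1.19 and 1.02), and without that array 8 rose in LG/J and 9 in SM/J (medians 0.82 and 1.02). C1qb rose by 1.67 ± 0.35 in LG/J and 1.22 ± 0.35 in SM/J. Cd14 rose by 1.06 ± 0.25 in LG/J and 3.15 ± 0.25 in SM/J, and its difference of injury between strains was called (-2.08 ± 0.35, adjusted p = 0.0312). Of 7 endothelial markers 3 rose in each strain (medians 0.57 and 0.31), including Plvap at 1.27 ± 0.22 and 0.91 ± 0.22, and without LG/J uninjured replicate 4 these were 2 in LG/J and 3 in SM/J. Of 10 epidermis markers 1 rose and 3 fell in LG/J and 2 rose in SM/J. The risers were Krt1, at 3.17 ± 0.20 and 1.90 ± 0.20, and in SM/J also Ivl (0.69 ± 0.15). The falls in LG/J were Flg2 (-1.49 ± 0.35), Trp63 (-0.71 ± 0.18) and Col17a1 (-0.67 ± 0.12). In SM/J Flg2 was at -1.14 ± 0.35 (adjusted p = 0.0599, limma). Of 10 skeletal muscle markers 7 fell in LG/J and 1 in SM/J, or 4 and 1 without that array, and of 8 adipocyte markers 3 fell in LG/J and 7 in SM/J. The part of any of these tissues in the changes of the Hedgehog genes was not tested.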

How the data were processed

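Trizol RNA was biotin-labelled, per the labels, and summarised with BeadStudio (version not given), per the submitters' processing notes. The deposited probe values are linear intensities, not normalized between arrays as far as their differing medians show. A second deposited table holds intensities of 28845 probes, with column medians of 178.52 to 178.59 and a normalization that is not described. Detection p-values and control probes were not used here.

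Background was estimated from the signals (normexp, offset 16). Log2 values were then quantile normalized, and the 25% of probes with the lowest means were removed. Probes were tested singly in limma 3.58.1 (R 4.3.3), with 4 group means, 1 shared spread and 5 comparisons, n = 3 arrays per group, a size at which no exact permutation test reaches below p = 0.1. The procedure was tested on simulated data. The background limit of an array is the 95% quantile of a normal curve fitted below the mode. Of the probes, 23604 had 1 gene name, 12 several and 21665 none. The offset understates fold changes of dim probes, and the number of arrays limits precision.

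The members and lists (107 pathway and 150 marker genes) were chosen with earlier results of these data known. Named are all members, up to 3 called genes of largest change per pathway list and comparison (or the lowest p), up to 2 per marker list, and the 3 genes most like Ptch1 and Hhip. The rule also listed Gli1, which no probe names, and likeness to Gli2 was added after its values were seen. Arrays sharing a replicate number were not paired, since departures from group means correlated at only -0.0877 to 0.264 over 10 such pairs. Alternatives varied background, scaling, filter, table, probe choice, weights (statmod 1.5.0), block and arrays.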

Additional observations from a re-analysis of the deposited data

How the results depend on the processing

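No call of a member probe reversed its sign under any alternative run, and values called under neither setting were given no direction. Counts depended on arrays and weights. Fitting only the 2 groups compared gave 0 called probes of the 15 in LG/J injury (1639 of all probes), 0 in uninjured strains (2689) and 5 at day 7 (11866). Array weights gave 2 in LG/J injury (6002 of all), 6 in SM/J injury (8355), 11 in uninjured strains (15479) and 5 at day 7 (13299), with 1623 of all for the difference of injury. Leaving out both uninjured replicate 4 of LG/J and replicate 2 of SM/J gave 2, 5 (7610 of all), 2 (2346), 7 (13261) and 6 (13173) in the order LG/J injury, SM/J injury, difference of injury, uninjured strains and day 7. The main counts of all probes were 3071, 3188, 117, 7326 and 8541.

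With the replicate block, the samples sharing only a number, the count was 0 in LG/J injury, 0 in uninjured strains (3794 of all) and 5 at day 7 (10082 of all), with 1582 of all in SM/J injury and 14 for the difference. The block ended the calls of Gli2 probe 1 in LG/J injury (-0.50, adjusted p = 0.0738), Ptch1 probe 1 in SM/J injury (-0.69, adjusted p = 0.143) and Ptch1 probe 1 in uninjured strains (-0.68, adjusted p = 0.0953). Fitting only the groups compared ended the first (adjusted p = 0.0761) and the last (adjusted p = 0.0908). In uninjured strains, 2 probes were called with no background correction, 2 with an offset of 50, 2 in the deposited table, 3 with median scaling and 3 with the filter on 3 arrays above background. Median scaling gave 1 at day 7 and 71 of all for the difference, and the share of calls that rose was 29.6% in LG/J and 28.2% in SM/J, against 53.2% and 55.1% under quantile normalization. The cause of these differences was not tested.

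Leaving out each array in turn, the called members ranged from 0 to 2 in LG/J injury, 1 to 3 in SM/J injury, 0 to 0 for the difference, 0 to 6 in uninjured strains and 0 to 4 at day 7. The calls over all probes ranged from 1512 to 3390 in LG/J injury, 1673 to 5971 in SM/J injury, 15 to 496 for the difference, 3465 to 12048 in uninjured strains and 4805 to 11856 at day 7. The list counts without LG/J uninjured replicate 4 were chosen after seeing the data. Taking 1 probe per gene gave 2566 and 2534 calls of 24690 for injury in LG/J and SM/J. Probes of Hhip and Ihh, Ptch1 probe 2, Gli2 probe 2, Gli3 probe 2, Smo probe 4 and Sufu probes 2 and 3 lay near background. Ptch1 probe 1 lay near it at day 7 in both strains. This limits what these arrays can show for them.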

Other observations

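Genes whose pattern was most like that of the members were sought by Pearson correlation of log2 levels over the 12 arrays, as a description of arrays that fall into 4 groups. Most like Gli2 probe 1, a choice made after its values were seen, were Rflna (0.976), Aatk (0.970) and Ltbp4 (0.970), which encodes an extracellular protein that binds latent TGF-beta. Their likeness to a probe that fell in both strains fixes the direction of their own change, so no test of it is given. Most like Ptch1 probe 1 were Zranb2 (0.984), Golga4 (0.973) and Sqle (0.972), which encodes an enzyme of cholesterol synthesis.

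After subtracting group means, which leaves the departures of single arrays, the genes most like Ptch1 probe 1 were the circadian gene Per3 (0.980), Sesn1 (0.979) and Ets1 (0.970), and those most like Gli2 probe 1 were Npcd (0.958), Actn1 (0.940) and Nrxn3 (0.932). For Hhip, near background on most arrays, they were Lclat1 (0.946), Mios (0.892) and Olfr773 (0.888) over the arrays and Vmn2r29 (0.936), Olfr773 (0.928) and Lclat1 (0.916) after subtraction.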
